A study of Mus musculus with 8 samples.

Results

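The genes described are the replication-dependent histone genes, taken as every non-control probe whose gene name begins with Hist1h, Hist2h, Hist3h or Hist4h. They comprised 55 of the 55681 probes and 49 of the 34797 gene names on the array, of which 52 probes and 47 genes were measured, that is, marked well above background by the scanner software on each of the 2 arrays of some group. The 47 genes held 5 of class H1, 14 of H2A, 11 of H2B, 8 of H3 and 9 of H4. Hist1h1d and Hist3h2bb-ps, and the second of the 2 probes for Hist4h4, were well above background on 0 of 8 arrays and gave no level. RNA came from wk3, an SLP-65-/- line of mouse pre-B cells that grows in the cytokine interleukin 7 (IL-7). Every culture thus lacked the adaptor SLP-65 and had been transduced with a retroviral vector and selected with puromycin. There were 4 groups of 2 cultures, each culture on 1 one-colour Agilent array: miR-15 sponge cells 36 h without IL-7, scrambled sponge cells 36 h without IL-7, miR-15 sponge cells in excess IL-7 and scrambled sponge cells in excess IL-7. The miR-15 sponge is a transcript built to bind the microRNAs miR-322, miR-497, miR-195 and miR-16 and the pair miR-15a and miR-15b, and the scrambled sponge is its control vector. The 2 replicates of a group were independently generated clones from separate experiments, and each clone is a single model of this 1 line.

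Replication-dependent histones package newly made DNA, and their genes lie in clusters and are transcribed mainly in S phase. Class H2A, H2B, H3 and H4 proteins form the nucleosome core, and H1 proteins bind the linker DNA between cores. Unlike other messenger RNAs, most of these transcripts end in a conserved stem-loop bound by the protein SLBP instead of in a poly(A) tail. Some histone genes also give longer, polyadenylated transcripts that run past the stem-loop, which are known from cells that have stopped dividing. The labelling kit named in the labels starts cDNA synthesis at poly(A) tails. Which 3′ end the histone transcripts of these cells had was not tested.

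The probe sequences deposited with the arrays show which part of a transcript each value reports. A hairpin was searched for in every probe as 16 bases with a perfectly paired stem of 6 and a loop of 4, beginning with GG and with T as the first and the third loop base. It was found in 6 of the 55 histone probes (10.9%) and in 13 of all 55681 probes (0.0233%) on the printed strand, and in 0 histone probes on the other strand. The 6 are shown as 30-base stretches because they place the end of the stem-loop within the probe. Capitals mark the hairpin, and the positions are those of the whole 60-base probe on the mm9 assembly as the files give them.
Hist1h3a (chr13:23853756-23853815, minus strand): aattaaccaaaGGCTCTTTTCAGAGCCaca
Hist1h3g (chr13:23627719-23627778, plus strand): cactttaaaGGCTCTTCTTAGAGCCaccca
Hist1h3i (chr13:21874784-21874843, minus strand): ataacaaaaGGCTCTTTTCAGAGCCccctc
Hist1h4m (chr13:21903960-21904019, plus strand): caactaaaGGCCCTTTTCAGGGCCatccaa
Hist2h2bb (chr3:96074056-96074115, plus strand): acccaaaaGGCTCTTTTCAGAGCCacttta
Hist2h2aa1 (chr3:96049949-96050008, plus strand): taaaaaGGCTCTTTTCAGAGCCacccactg
In the first 5 of these, 3 to 6 bases of the probe follow the hairpin, while in the Hist2h2aa1 probe 38 bases follow it. The probe of Hist1h2ab ended in the first 11 bases of the same hairpin, and that of Hist1h2ae began with its last 12. On these grounds the probes were described in 2 sets. A coding-side probe starts before base 480 of its transcript (before base 700 for H1), in the coding region or up to the stem-loop, and a downstream probe starts later. These limits were set after the values were seen, so the split is a description without a test. By the probe that represents each gene, 33 genes had a coding-side probe and 14 a downstream probe.

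Many copies of a class differ by few bases, and the arrays cannot always tell them apart. Of the 55 probes, 15 were annotated in the deposited files to more than 1 RefSeq transcript. The 4 H2A probes that start at base 333 and end with the stop codon are printed in full because they show this. Capitals mark the 10 of 60 positions at which the 4 are not all alike.
Hist1h2af (chr13:23626113-23626172, plus strand): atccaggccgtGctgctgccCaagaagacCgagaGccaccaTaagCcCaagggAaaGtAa
Hist1h2ak (chr13:21845304-21845363, minus strand): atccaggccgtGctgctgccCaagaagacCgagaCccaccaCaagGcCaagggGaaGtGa
Hist1h2an (chr13:21878695-21878754, minus strand): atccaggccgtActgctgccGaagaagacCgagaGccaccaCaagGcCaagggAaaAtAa
Hist2h2aa2 (chr3:96049837-96049896, plus strand): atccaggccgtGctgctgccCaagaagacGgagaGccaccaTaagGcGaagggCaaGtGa
The values of these 4 genes, and of Hist1h2ah, whose probe lists 4 transcripts, are therefore uncertain as values of single genes. The same limit holds for Hist1h2bm, Hist1h3d and Hist1h4k, whose probes list up to 4 transcripts, and for Hist1h4c and Hist1h4d, with 3. Probes of Hist1h2be, Hist1h2bq, Hist1h4j and Hist2h3b list 2. Counts of called genes treat all of these as separate genes. The probes of Hist2h2aa2 and Hist2h2aa1 are neighbours on chromosome 3, with 52 bases between them.

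Levels are log2 signal relative to the array's 75th percentile, and differences are log2 differences ± SE from a linear model (limma) with n = 2 arrays per group. A gene was called at a Benjamini-Hochberg adjusted p under 0.05 over all 21335 genes tested. Of the 59305 non-control spots, 50.6% to 56.6% per array were well above background. Replicates correlated at 0.990 to 0.997 over all genes, and the largest gap between replicates of a histone gene was 0.98, for Hist2h2be in scrambled cells with IL-7. All 52 measured histone probes were well above background on all 8 arrays, and 0 non-control spots were saturated. Of the pre-B cell markers, 10 of 10 were well above background on all 8 arrays, with a summed linear level of 1490 to 1500 and 1820 to 1860 in sponge and scrambled cells without IL-7, and of 1390 to 1550 and 1580 to 1640 in sponge and scrambled cells with IL-7. Among markers of other cells, Col1a1, Col3a1, Pdgfra, Dcn and Thy1 of fibroblasts, Alas2 of erythroid cells, Cd3g of T cells and Ly6g of neutrophils were well above background on 0 arrays. Slide position followed the groups and cannot be told apart from them. RNA was taken from whole cultures, so fewer cycling cells and less histone RNA per cell cannot be told apart.

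In scrambled cells, most histone genes were lower after IL-7 withdrawal, and the genes that rose were all read by downstream probes. Of the 47 genes, 31 were lower and 8 higher without IL-7 (median -1.08), where 27.4% of all 21335 genes were called lower and 20.7% higher (median -0.02). All 31 that fell had coding-side probes, and they were 31 of the 33 genes with such a probe (median -1.29). Of the 14 genes with downstream probes, 8 were higher and 0 lower (median 0.89). The 2 coding-side genes not called were Hist1h1t, a testis H1 variant, at 0.38 (adjusted p = 0.173) and Hist1h4h at 0.06 (adjusted p = 0.807). Leaving out any 1 array gave 30 to 32 genes lower and 8 to 10 higher.

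**Figure D1:**
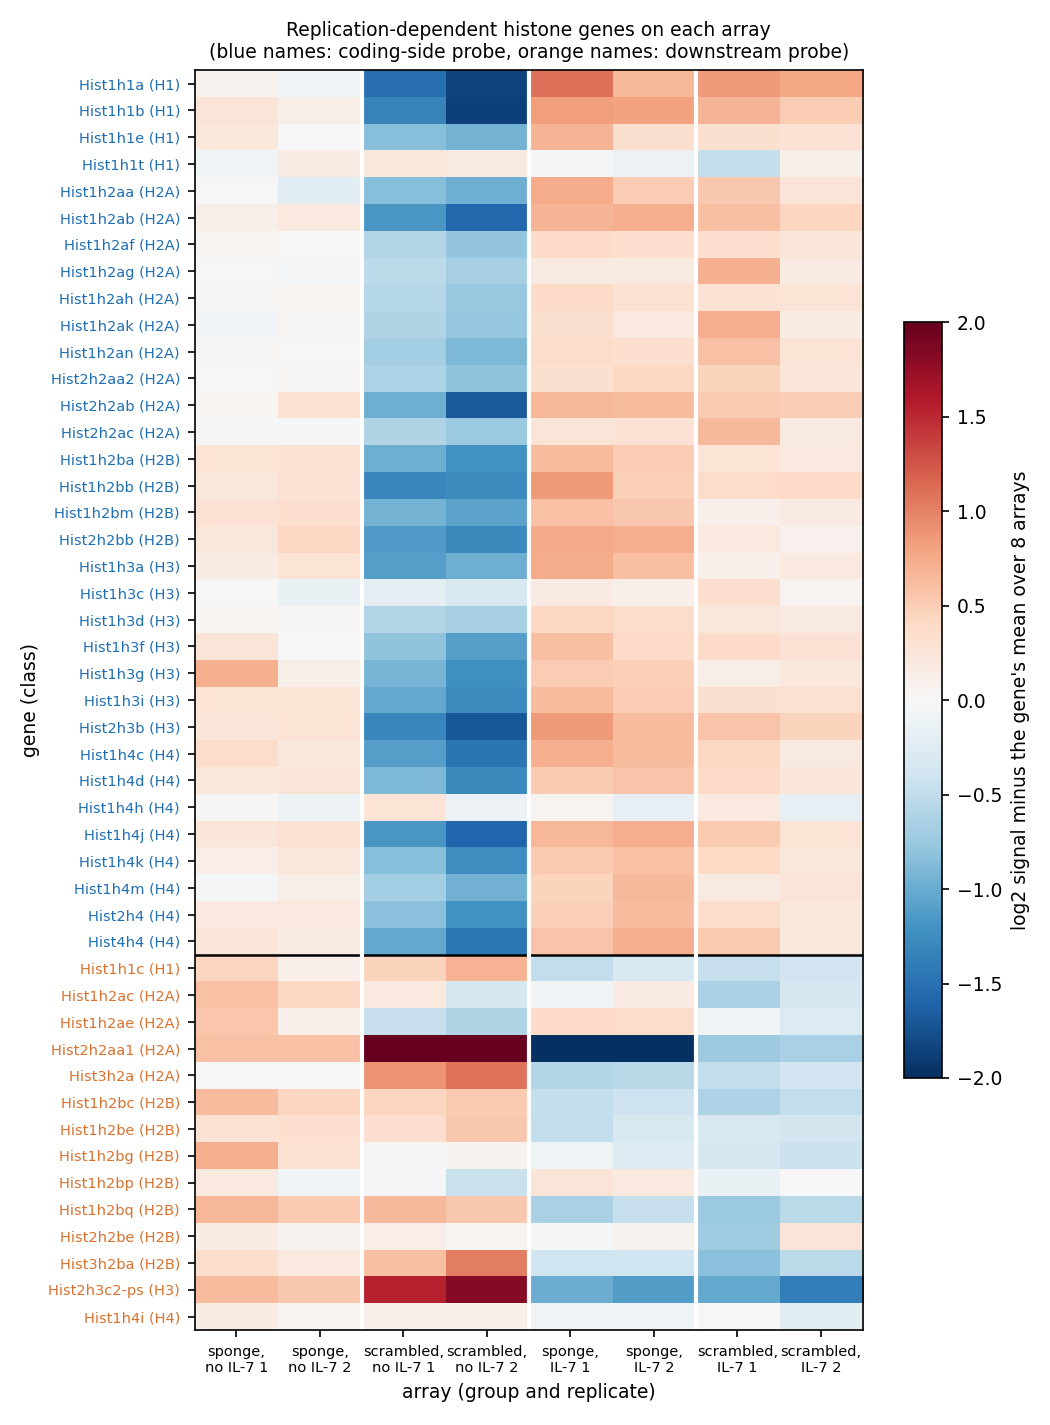
Log2 signal of the 47 measured histone genes on the 8 arrays, as the difference from each gene's mean over all arrays, with colours limited to 2 log2 units either way. Genes with a coding-side probe (above the line), other than Hist1h1t and Hist1h4h, are lowest on both arrays of scrambled cells without IL-7, and most genes with a downstream probe (below it) are higher without IL-7 than with it.

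Among the H1 genes, Hist1h1a stood at 0.99 and 0.65 in scrambled cells without IL-7, against 3.35 and 3.28 with it. It fell by 2.49 ± 0.18 (adjusted p = 0.00036), the largest fall of any histone gene in these cells, and its probe lies at chr13:23855888-23855947. Hist1h1b was at 4.55 and 4.02 without IL-7 and at 6.56 and 6.40 with it (-2.20 ± 0.18, adjusted p = 0.000458). The arrays of the 2 conditions did not overlap for either gene. Hist1h1e fell by 1.2 ± 0.14. Hist1h1c, whose probe starts at base 1342, went the other way, with 1.40 and 1.65 without IL-7 and 0.50 and 0.58 with it (0.99 ± 0.15, adjusted p = 0.00298).

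Class H2A had 10 genes lower and 2 higher of 14 (median -1.05), against 27.4% of all genes called lower and 20.7% higher. Hist1h2ab, with the start of the hairpin in its probe, gave 6.56 and 6.14 in scrambled cells without IL-7, against 8.32 and 8.14 with it (-1.88 ± 0.15, adjusted p = 0.000432). For Hist2h2ab the values were -1.73 and -2.44 without IL-7 and -0.24 and -0.27 with it (-1.83 ± 0.23, adjusted p = 0.00165). Both pairs of arrays were clear of each other. The H2A probes over the coding end, those of Hist1h2af, Hist1h2ag, Hist1h2ah, Hist1h2ak, Hist1h2an, Hist2h2aa2 and Hist2h2ac, gave differences of -1.21 to -0.94, all called. The neighbouring probes at Hist2h2aa differed in direction. The coding probe of Hist2h2aa2 read 8.27 and 8.09 without IL-7, against 9.35 and 9.14 with it, a fall by 1.07 ± 0.10 (adjusted p = 0.000691). The probe of Hist2h2aa1, which runs through the hairpin and beyond, read 3.57 and 3.88 without IL-7, against 0.78 and 0.86 with it, a rise of 2.91 ± 0.12 (adjusted p = 0.000235). It was the largest rise among the 47 genes. Since the files annotate the coding probe to a transcript of Hist2h2aa1 as well, the 2 probes may report parts of the same gene. Hist3h2a, with a probe from base 767, was also higher, at 3.47 and 3.66 without IL-7 and 2.08 and 2.19 with it (1.43 ± 0.09, adjusted p = 0.00028).

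**Figure D2:**
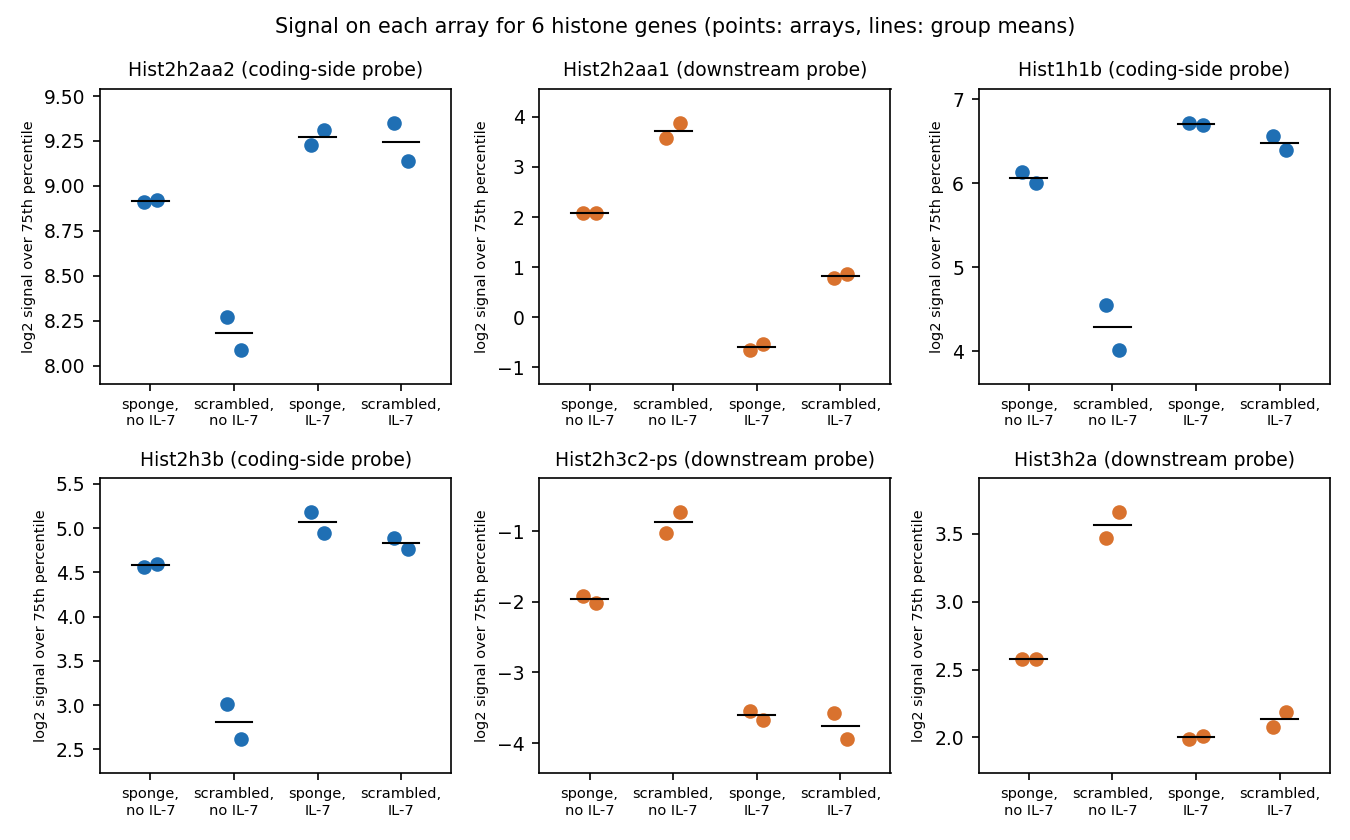
Log2 signal relative to the array's 75th percentile for 6 histone genes, with a point per array and a line at the mean of the 2 arrays of each group. Hist2h2aa2, Hist1h1b and Hist2h3b are lowest in scrambled cells without IL-7, while Hist2h2aa1, Hist2h3c2-ps and Hist3h2a are highest there.

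Class H2B was split, with 4 genes lower (36.4%) and 4 higher (36.4%) of 11 (median 0.33), against 27.4% and 20.7% of all genes. Of its 11 genes, 7 were read by downstream probes. All 4 H2B genes with coding-side probes fell. Hist1h2bb gave -2.96 and -2.93 in scrambled cells without IL-7, against -1.29 and -1.27 with it (-1.66 ± 0.13, adjusted p = 0.00039). Hist2h2bb, whose probe ends 6 bases after the hairpin, gave 2.19 and 2.03 without IL-7 and 3.51 and 3.41 with it (-1.35 ± 0.10, adjusted p = 0.000354). In both genes the 2 arrays of a condition lay close together and far from those of the other condition. Hist1h2ba, known from testis, and Hist1h2bm fell by 1.33 ± 0.10 and by 1.14 ± 0.08. Of the 7 with downstream probes, Hist3h2ba stood at 0.31 and 0.74 without IL-7, against -1.12 and -0.83 with it (1.5 ± 0.17, adjusted p = 0.00113). Hist1h2bq, read from base 1935, stood at -2.52 and -2.63 without IL-7 and at -3.92 and -3.71 with it (1.24 ± 0.12, adjusted p = 0.000631). Hist1h2bc rose by 1.04 ± 0.10 and Hist1h2be by 0.79 ± 0.10. The remaining 3, Hist1h2bg, Hist2h2be and Hist1h2bp, gave 0.43, 0.33 and -0.17, with adjusted p = 0.0572, 0.399 and 0.409.

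Class H3 had 7 genes lower and 1 higher of 8 (median -1.21), against 27.4% of all genes called lower and 20.7% higher. Hist2h3b stood at 3.01 and 2.62 in scrambled cells without IL-7, against 4.89 and 4.77 with it (-2.02 ± 0.15, adjusted p = 0.000377). Hist1h3i, with the hairpin near the end of its probe, stood at -0.67 and -0.92 without IL-7, against 0.68 and 0.66 with it (-1.46 ± 0.10, adjusted p = 0.000342). The other hairpin probes of this class, Hist1h3a and Hist1h3g, fell by 1.18 ± 0.10 and by 1.25 ± 0.21. Hist1h3c fell least (-0.46 ± 0.11, adjusted p = 0.0199), and it lost its call under quantile normalization, in the deposited value table and without either scrambled array lacking IL-7 or scrambled replicate 1 with IL-7 (adjusted p = 0.0541 to 0.106). The exception was Hist2h3c2-ps. Its name on the array marks a pseudogene, while its current symbol, matched by synonym, is H3c15, without that mark. The gene was read by a probe from base 957. It read -1.02 and -0.73 without IL-7 and -3.57 and -3.94 with it, a rise of 2.88 ± 0.16 (adjusted p = 0.000248).

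Class H4 had 7 genes lower and 0 higher of 9 (median -1.35), against 27.4% of all genes called lower and 20.7% higher. Hist1h4j gave 3.07 and 2.65 in scrambled cells without IL-7, against 4.75 and 4.51 with it (-1.77 ± 0.16, adjusted p = 0.000549). Hist4h4, on chromosome 6 apart from the large clusters, gave 5.46 and 5.04 without IL-7 and 7.01 and 6.70 with it (-1.61 ± 0.17, adjusted p = 0.000968). Neither gene had overlapping arrays. Hist1h4m, a hairpin probe, fell by 1.04 ± 0.13. Hist1h4i, represented by a probe at base 574, was at 0.21 (adjusted p = 0.129). Tested separately with all kept probes, its probes at bases 23, 483 and 574 gave -0.42 (adjusted p = 0.0375), -0.50 (adjusted p = 0.0214) and 0.21 (adjusted p = 0.139). The first 2 thus fell although the second starts just past the limit of 480. For Hist1h4k the probes at bases 36 and 252 gave -1.68 and -1.35, for Hist2h4 those at bases 3 and 230 gave -0.95 and -1.30, and for Hist1h2ak those at bases 0 and 333 gave -2.14 and -1.12. Both probes of each of these genes were called lower.

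The classes overlapped once the probe position was held apart. Among genes with coding-side probes, the median difference was -1.70 for 4 H1 genes, -1.10 for 10 H2A genes, -1.34 for 4 H2B genes, -1.25 for 7 H3 genes and -1.38 for 8 H4 genes. Their ranges were -2.49 to 0.38 for H1, -1.88 to -0.94 for H2A, -1.66 to -1.14 for H2B, -2.02 to -0.46 for H3 and -1.77 to 0.06 for H4. Near the limits of the split, the coding-side probes closest below it were Hist1h3a at base 440 (-1.18) among core histones and Hist1h1t at base 663 (0.38) in H1. Closest above were Hist1h4i at base 483 (-0.50), Hist2h2aa1 at base 488 (2.91) and, in H1, Hist1h1c at base 1342 (0.99). The position listed for the Hist1h3f probe, base 409, does not match its sequence, which covers the start codon, and the probe is coding-side by either. Hist1h2ae, read by a probe that begins inside the hairpin, gave -0.37 (adjusted p = 0.116) and Hist1h2ac, read from base 2426, gave 0.42 (adjusted p = 0.145).

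**Figure D3:**
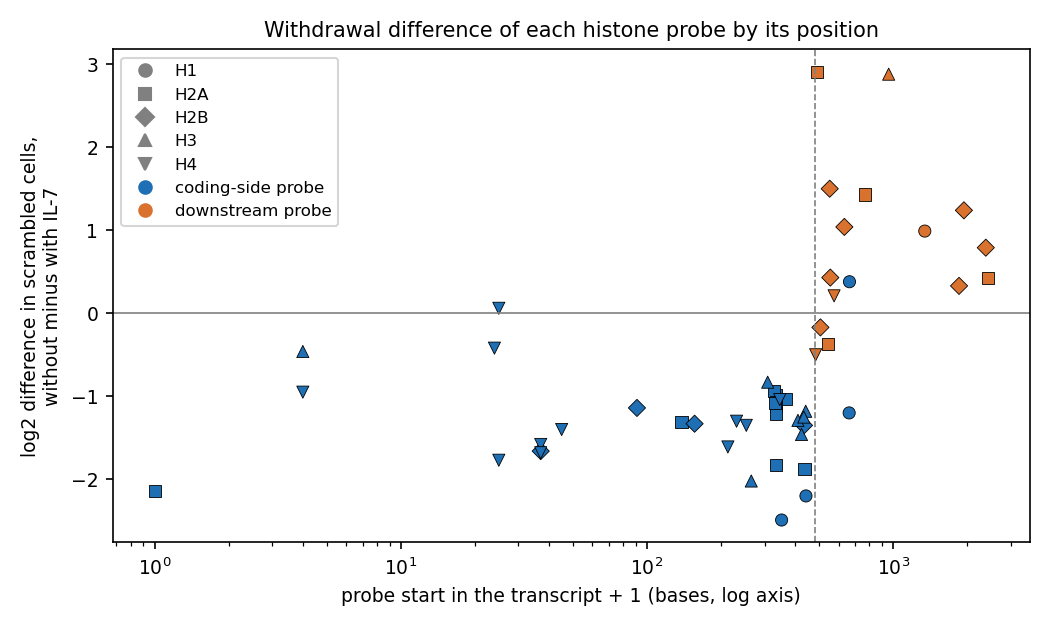
Log2 difference without minus with IL-7 in scrambled cells for each of the 52 kept histone probes against the start of the probe in its transcript plus 1 base (log axis), with the marker shape giving the class and the dashed line at base 480, the limit used for core histones. Called falls lie left of the line, apart from Hist1h1e at 661, an H1 probe with its limit at base 700, and the Hist1h4i probe at 483, while the differences of 0.79 and above lie right of it.

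In sponge cells the same withdrawal gave smaller differences. Of the 47 genes, 7 were lower (14.9%) and 9 higher (19.1%) without IL-7 (median -0.29). Among all genes, 15.3% were called lower and 7.94% higher (median -0.06). The histone genes were thus called lower no more often than all genes. Among the 33 with coding-side probes the share called lower was 21.2%. The 7 that fell, Hist1h1a, Hist1h2aa, Hist1h2af, Hist1h3a, Hist1h3d, Hist1h4m and Hist2h2bb, had also fallen in scrambled cells. All 31 genes that fell in scrambled cells had a difference nearer 0 in sponge cells. They were picked by that fall, which by itself favours a smaller difference in sponge cells. The like share among all genes that fell in scrambled cells was not counted. The 9 that rose had downstream probes, and 8 of them had risen in scrambled cells, the other being Hist1h2bg (0.69 ± 0.15, adjusted p = 0.0248). The count of 7 rested on few arrays: it was 0 without sponge replicate 1 with IL-7 or without either sponge array lacking IL-7, 2 without sponge replicate 2 with IL-7, and 4 after quantile normalization. Each of the 7 lost its call in 4 to 13 of the 16 alternatives, and Hist1h4m also with the replicate number as a block (adjusted p = 0.0635). The count of 9 was 5 without sponge replicate 2 with IL-7, and Hist1h2bg lost its call in 7 alternatives (adjusted p = 0.052 to 0.124). Hist3h2ba lost its call under quantile normalization and in the deposited table (adjusted p = 0.0698 in each) and without a filter (adjusted p = 0.0944). Hist1h1c lost it without a filter (adjusted p = 0.0655), and both also lost it with some arrays left out. Hist1h2be and Hist3h2a lost theirs only with an array left out. The rises of Hist2h2aa1, Hist2h3c2-ps, Hist1h2bq and Hist1h2bc kept their calls in all 16.

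Hist1h1a was at 2.57 and 2.42 in sponge cells without IL-7, against 3.6 and 3.16 with it (-0.89 ± 0.18, adjusted p = 0.0209). Hist1h2aa, an H2A gene known from testis, was at -0.44 and -0.64 without IL-7 and at 0.31 and 0.07 with it (-0.73 ± 0.15, adjusted p = 0.0197). Arrays with and without IL-7 were separate for both. Hist2h2bb gave 3.55 and 3.73 without IL-7 and 4.08 and 4.05 with it (-0.42 ± 0.10, adjusted p = 0.0292). Hist1h3a gave -1.35 and -1.22 without IL-7 and -0.76 and -0.90 with it (-0.45 ± 0.10, adjusted p = 0.0241). Hist1h4m gave -1.32 and -1.18 without IL-7, against -0.85 and -0.64 with it (-0.51 ± 0.13, adjusted p = 0.0404). These 3 are hairpin probes with 3 to 6 bases past the stem-loop. Hist2h2aa1 read 2.09 and 2.09 without IL-7, against -0.65 and -0.53 with it, a rise of 2.68 ± 0.12 (adjusted p = 0.00159). Hist2h3c2-ps read -1.92 and -2.01 without IL-7 and -3.55 and -3.67 with it (1.65 ± 0.16, adjusted p = 0.00345). Hist1h2bq read -2.50 and -2.64 without IL-7 and -3.82 and -3.63 with it (1.15 ± 0.12, adjusted p = 0.00359), and Hist1h1c read 1.39 and 1.06 without IL-7 and 0.46 and 0.64 with it (0.68 ± 0.15, adjusted p = 0.0254). The rises of Hist1h2bc and Hist1h2be were 0.98 ± 0.10 and 0.72 ± 0.10.

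**Figure D4:**
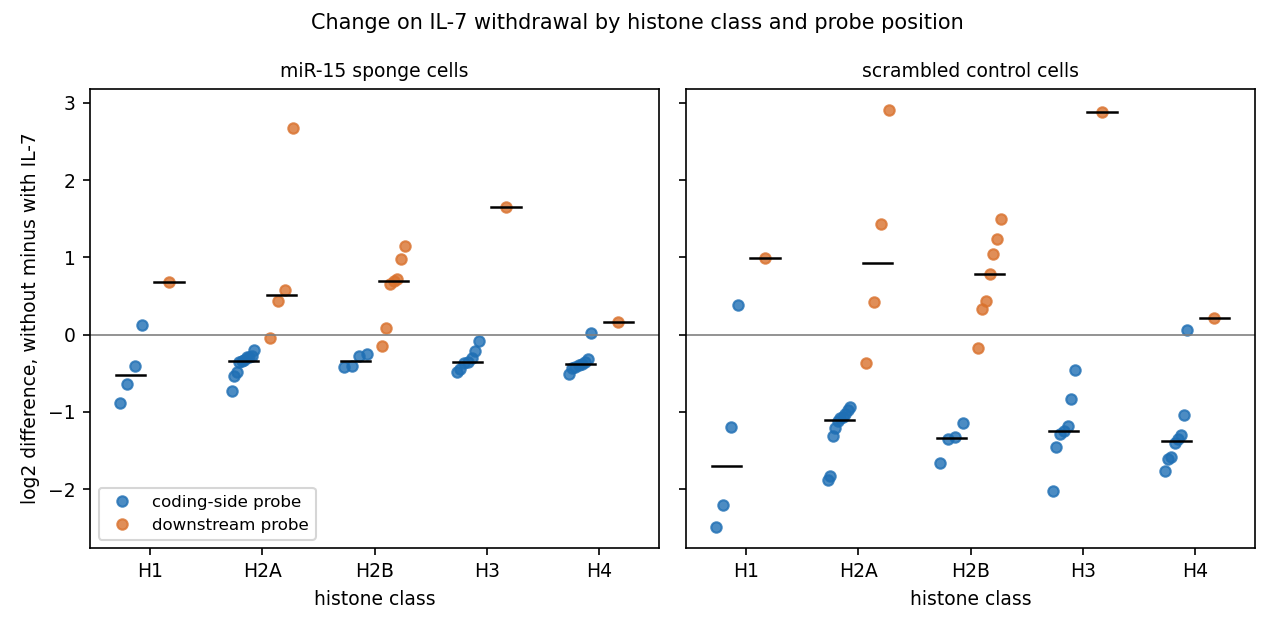
Log2 difference without minus with IL-7 for each histone gene by class, in sponge cells (left) and scrambled cells (right), with a point per gene and a line at the median of each set. Coding-side medians are -1.70 to -1.10 in scrambled cells and nearer 0 in sponge cells in every class, and the downstream genes lie mostly above 0 in both.

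With IL-7 present, sponge and scrambled cells differed in 1 histone gene. Hist2h2aa1 was at -0.65 and -0.53 in sponge cells, against 0.78 and 0.86 in scrambled cells (-1.41 ± 0.12, adjusted p = 0.0106). Across all genes, 0.816% were called lower and 0.314% higher in sponge cells. The median of the 47 genes was 0.20, that of all genes 0.01, and 46 histone genes were not called, with differences of -0.26 to 0.61 (adjusted p = 0.0582 or above). Hist2h2aa1 lost its call without either sponge array with IL-7 (adjusted p = 0.074 and 0.0729).

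Without IL-7, most histone genes were higher in sponge than in scrambled cells. Of the 47 genes, 30 were higher and 3 lower in sponge cells (median 0.80), against 16.7% of all genes called higher and 15.4% called lower (median -0.05). These comparisons use the same arrays of scrambled cells without IL-7 as the withdrawal above and are not independent of it. Genes with coding-side probes made up 29 of the 30 that were higher, out of 33 (median 1.22), and the other was Hist1h2ae (0.86 ± 0.17, adjusted p = 0.012), which was 0.34 after normexp background correction (adjusted p = 0.0735) and lost its call without scrambled replicate 2 lacking IL-7 (adjusted p = 0.0766). By class, 3 of 5 H1, 10 of 14 H2A, 4 of 11 H2B, 6 of 8 H3 and 7 of 9 H4 genes were higher. The 3 that were lower, Hist2h2aa1, Hist2h3c2-ps and Hist3h2a, had downstream probes.

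Hist1h1b stood at 6.14 and 6.0 in sponge cells without IL-7, against 4.55 and 4.02 in scrambled cells without it (1.79 ± 0.18, adjusted p = 0.0016). Hist2h3b stood at 4.56 and 4.60 in sponge cells, against 3.01 and 2.62 in scrambled cells (1.76 ± 0.15, adjusted p = 0.00133). Both replicates of sponge cells were above both of scrambled cells for each gene. Hist1h4j gave 4.48 and 4.54 in sponge cells and 3.07 and 2.65 in scrambled cells (1.65 ± 0.16, adjusted p = 0.00145). Hist1h2bb gave -1.42 and -1.37 in sponge cells and -2.96 and -2.93 in scrambled cells (1.55 ± 0.13, adjusted p = 0.00129), and Hist1h2ab gave 7.84 and 7.91 in sponge cells, against 6.56 and 6.14 in scrambled cells (1.52 ± 0.15, adjusted p = 0.00153). The pair at Hist2h2aa again split. Hist2h2aa2 was at 8.91 and 8.92 in sponge cells, against 8.27 and 8.09 in scrambled cells (0.74 ± 0.10, adjusted p = 0.00419), while Hist2h2aa1 was at 2.09 and 2.09 in sponge cells, against 3.57 and 3.88 in scrambled cells (-1.64 ± 0.12, adjusted p = 0.00115). Hist2h3c2-ps, at -1.92 and -2.01 in sponge cells and -1.02 and -0.73 in scrambled cells, differed by -1.09 ± 0.16, and Hist3h2a, at 2.58 and 2.58 in sponge cells and 3.47 and 3.66 in scrambled cells, by -0.99 ± 0.09. The 5 other downstream genes that rose on withdrawal in scrambled cells, Hist1h1c, Hist1h2bc, Hist1h2be, Hist1h2bq and Hist3h2ba, gave -0.54 to 0.06 between sponge and scrambled cells and were not called.

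The difference between the 2 withdrawal effects was tested as an interaction, sponge minus scrambled. It was positive and called for 15 of the 47 genes and negative and called for 2 (median 0.73), against 4.32% and 0.951% of all genes (median -0.04). The 15 had coding-side probes and came from every class, with 2 H1, 3 H2A, 4 H2B, 3 H3 and 3 H4 genes. The largest was Hist1h1a (1.60 ± 0.26, adjusted p = 0.0341), and the 2 negative ones were Hist2h3c2-ps (-1.23 ± 0.22, adjusted p = 0.0413) and Hist3h2a (-0.85 ± 0.12, adjusted p = 0.0314). For Hist2h2aa1 it was -0.23 ± 0.17 (adjusted p = 0.461). With the replicate number as a block, 0 histone genes were called in either direction, and 0 of all 21335 genes were. Without a filter on dim probes, 0 of all 34788 genes were called. Counts of positive calls were likewise 0 without any filter on dim probes, and 0 when any array was left out other than scrambled replicate 2 with IL-7 (18) or scrambled replicate 1 without IL-7 (16).

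The genes lie in 4 places in the genome: of the 49 genes, 36 on chromosome 13 (Hist1), 9 on chromosome 3 (Hist2), 3 on chromosome 11 (Hist3) and 1 on chromosome 6 (Hist4). In scrambled cells, 24 of 35 measured Hist1 genes fell and 4 rose on withdrawal (median -1.12). Of 9 Hist2 genes, 6 fell and 2 rose (median -1.08). The shares of all genes were 27.4% lower and 20.7% higher. Hist3h2a and Hist3h2ba both rose and have downstream probes, and Hist4h4 fell.

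Promoters were compared because many of these genes move together. RefSeq promoters (GRCm38.p6) were matched to 42 of the 47 measured genes by current symbol. The 250 bases before the start were searched on both strands for TTTGCAT, the core of the octamer bound by Oct-1, for CCAAT and for TATAAA. The octamer core was in 13 of 42 histone promoters (31%) and in 4.06% of all 27025 promoters. It was in 7 of 14 H2A and 5 of 9 H2B promoters, in 1 of 8 H4 promoters and in 0 of the 5 H1 and 6 H3 promoters. CCAAT was in 83.3% of histone promoters against 34.5% of all, and in 2 of 8 H4 promoters, and TATAAA was in 50.0% against 13%. The 2 probe sets had like shares: for coding-side and downstream genes the octamer core was in 30% of 30 and 33.3% of 12, CCAAT in 83.3% of each and TATAAA in 50.0% of each. An H2B gene that fell and one that rose on withdrawal are shown, with the matched letters in capitals. No matches overlap in them, and a match does not show that a factor binds.
Hist1h2bb (H2bc3), chr13:23746484-23746733, plus strand of GRCm38.p6: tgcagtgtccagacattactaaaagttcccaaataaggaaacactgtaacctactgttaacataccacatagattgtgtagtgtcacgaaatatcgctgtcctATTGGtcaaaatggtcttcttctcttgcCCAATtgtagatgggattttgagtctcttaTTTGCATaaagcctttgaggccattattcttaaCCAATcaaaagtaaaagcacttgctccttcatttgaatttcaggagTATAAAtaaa
Hist3h2ba (H2bu2), chr11:58948661-58948910, plus strand of GRCm38.p6: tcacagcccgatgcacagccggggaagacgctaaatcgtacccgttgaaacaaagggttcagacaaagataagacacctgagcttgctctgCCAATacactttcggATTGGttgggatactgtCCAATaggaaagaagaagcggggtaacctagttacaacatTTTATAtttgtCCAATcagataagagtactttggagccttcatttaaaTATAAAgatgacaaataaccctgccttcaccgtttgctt
Both hold CCAAT in both orientations and TATAAA toward the start, and the octamer core is in the first.

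Genes around the histone genes were described from lists. Replacement histones are as a rule not limited to S phase, and most of their transcripts are polyadenylated, though not all members of the list follow this. Of 10 measured, 6 fell and 0 rose on withdrawal in scrambled cells (median -0.78). Of all genes, 27.4% were called lower and 20.7% higher there. Without IL-7, 7 of the 10 were higher and 0 lower in sponge than in scrambled cells (median 0.62). The shares of all genes were 16.7% higher and 15.4% lower. H2afz, which encodes H2A.Z, was at 7.60 and 7.32 without IL-7, against 8.65 and 8.55 with it, in scrambled cells (-1.15 ± 0.11, adjusted p = 0.000637). H2afx, the variant phosphorylated at DNA breaks, fell by 1.05 ± 0.13, and H2afv and H2afj each fell by 1.1 ± 0.08. H3f3b, a gene of the H3.3 variant, gave -0.09 (adjusted p = 0.366), with 6.61 and 6.69 without IL-7 and 6.71 and 6.78 with it.

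Of 18 measured genes for histone transcription and mRNA processing, 12 fell and 1 rose on withdrawal in scrambled cells (median -0.60). Of all genes, 27.4% were called lower and 20.7% higher there. Without IL-7, 12 of the 18 were higher and 1 lower in sponge than in scrambled cells (median 0.34). The shares of all genes were 16.7% higher and 15.4% lower. Slbp, the stem-loop binding protein, was at 3.56 and 3.41 in sponge cells and 1.78 and 1.5 in scrambled cells without IL-7, and at 4.14 and 4.24 in sponge cells and 3.68 and 3.82 in scrambled cells with it. It fell by 2.11 ± 0.12 on withdrawal in scrambled cells (adjusted p = 0.000263) and by 0.70 ± 0.12 in sponge cells (adjusted p = 0.0133), and the call in sponge cells was lost without replicate 2 of the sponge cells with IL-7 (adjusted p = 0.0771) or without IL-7 (adjusted p = 0.0803). The interaction for Slbp was 1.41 ± 0.17 (adjusted p = 0.0307), and its call was lost with the replicate block (adjusted p = 0.0508), without a filter (adjusted p = 0.0903) and without any of the 6 arrays that ended the calls of the histone genes (adjusted p = 0.0619 to 0.124). Lsm11, a subunit of the U7 particle that guides cleavage after the stem-loop, fell by 1.41 ± 0.07 in scrambled cells. Its partner Lsm10 gave -0.02 (adjusted p = 0.89). Casp8ap2, which encodes FLASH, fell by 1.31 ± 0.12, and the cap-binding subunit Ncbp1 by 0.78 ± 0.07. Npat, the coactivator of histone transcription, was not well above background on both arrays of any group and was not tested.

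Of 20 histone chaperones and acetylation factors, 13 fell and 1 rose on withdrawal in scrambled cells (median -1.01). Of all genes, 27.4% were called lower and 20.7% higher there. Without IL-7, 12 of the 20 were higher and 1 lower in sponge than in scrambled cells (median 0.77). The shares of all genes were 16.7% higher and 15.4% lower. Mcm2, a helicase subunit that also binds histones, fell by 2.34 ± 0.08, Nap1l1 by 1.76 ± 0.09 and Rbbp7 by 1.58 ± 0.07. The 1 that rose was Asf1a (1.06 ± 0.10, adjusted p = 0.00062), named after its value was seen. Of 27 measured DNA replication genes, 27 fell in scrambled cells (median -2.25) and 18 in sponge cells (median -0.76). On withdrawal in sponge cells, 15.3% of all genes were called lower. Without IL-7, 27 of the 27 were higher in sponge than in scrambled cells (median 1.92). Pcna, the sliding clamp of replicative polymerases, stood at 7.1 and 7.0 in sponge cells and 5.40 and 5.02 in scrambled cells without IL-7, and at 7.80 and 7.88 in sponge cells and 7.49 and 7.42 in scrambled cells with it. Cdt1 and Mcm7, which license origins, fell by 2.32 ± 0.14 and by 1.73 ± 0.08 in scrambled cells, and Ccne1, the cyclin E1 gene, by 3.37 ± 0.30. The DNA replication genes thus moved with the coding-side histone genes in these comparisons, and their part in the histone values was not tested.

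**Figure D5:**
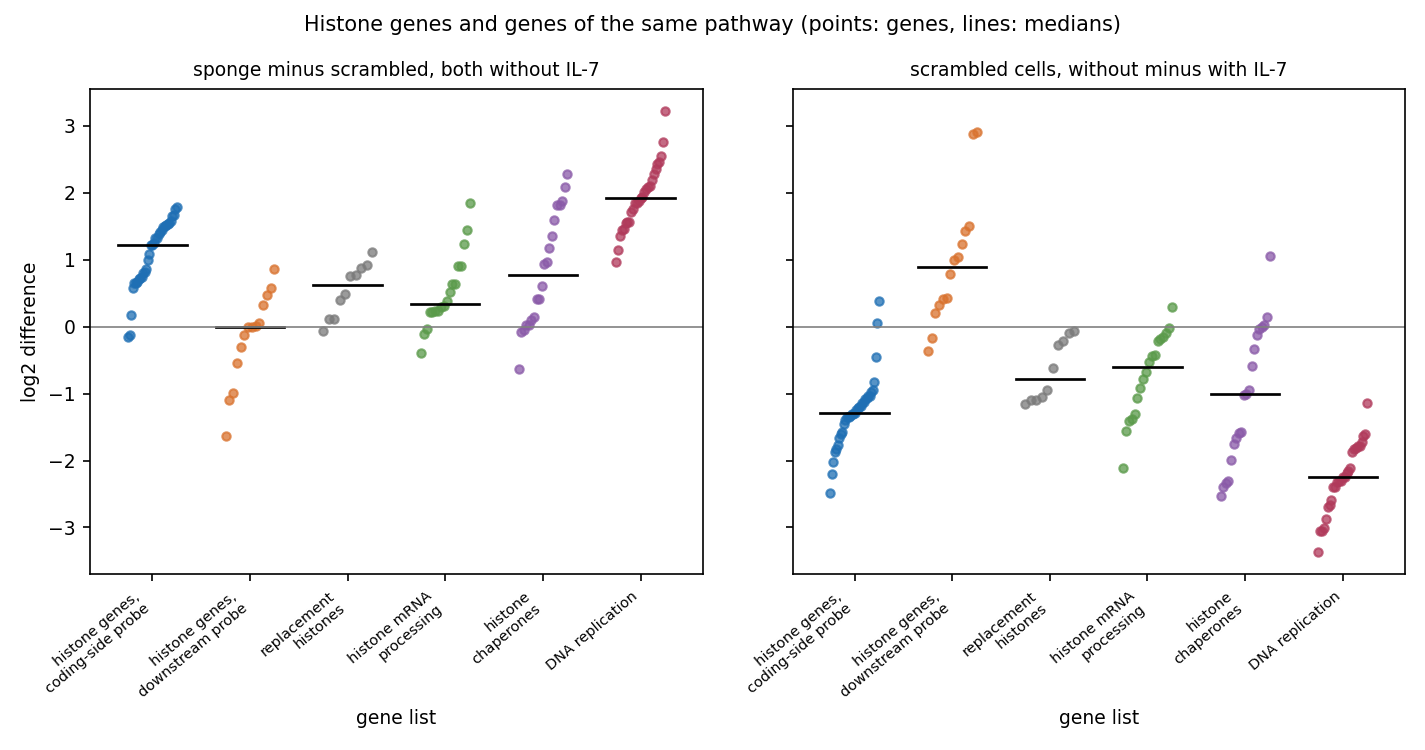
Log2 differences of the histone genes by probe set and of 4 lists of related genes, for sponge minus scrambled cells without IL-7 (left) and for withdrawal in scrambled cells (right), with a point per gene and a line at each median. The DNA replication genes have medians of 1.92 and -2.25, coding-side histone genes 1.22 and -1.29, and downstream histone genes 0.00 and 0.89.

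Marker lists of cell types were counted on withdrawal in scrambled cells as well, where 27.4% of all genes were called lower and 20.7% higher. Of the pre-B markers 6 rose and 1 fell of 10 (median 0.45), of the myeloid markers 1 rose and 1 fell of 6, of the erythroid markers 1 rose and 1 fell of 4, of the T cell markers 0 rose and 2 fell of 3, and the 1 fibroblast gene measured, Col1a2, was not called. The summed linear level of the myeloid markers was 17.9 to 18.5 in sponge and 27.2 to 27.6 in scrambled cells without IL-7, and 14.0 to 18.2 in sponge and 16.1 to 21.5 in scrambled cells with it. Its part in the histone values was not tested. Of 5 measured genes of male germ cell chromatin, Hist1h2ba and Hist1h2aa fell in scrambled cells as above, and Prm1, which encodes a protamine of sperm, was at 2.03 and 2.46 without IL-7 and -2.53 and -2.0 with it (4.51 ± 0.21, adjusted p = 0.000235).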

How the data were processed

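Total RNA of 8 cultures was labelled with Cy3 and hybridised by the authors, 1 array each, on 1 slide. The deposited scanner files hold intensity on a linear scale. Per the file headers the processed signal was background-subtracted and spatially detrended, with no step that ties one array to another, using Agilent Feature Extraction 10.7.3.1 (10.7.1.1 in the submitters' processing notes). The deposited value table holds intensity with 1 common distribution in all columns, with software not given in the sources used here.

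Spots with outlier flags were left out, log2 processed signal minus the array's log2 75th percentile was averaged per probe, and a probe was kept where some group had it marked well above background on each of its 2 arrays (30954 probes). The kept probe with the highest mean stood for a gene. limma 3.58.1 in R 4.3.3 fitted the 4 group means (4 residual and 1.81 prior degrees of freedom) with two-sided moderated tests adjusted over 21335 genes. Precision is limited by 2 arrays per group. On simulated data, in fits of 21335 genes, 200 genes were changed by each of 0.5, 1 and 2 log2 units. Withdrawal in scrambled cells recovered 37.0%, 69.0% and 84.5% of them, and the interaction 6.0%, 52.0% and 77.0%. No other gene was changed there, while in the data 27.4% of genes were called lower and 20.7% higher on withdrawal in scrambled cells. The adjusted p depends on that share, so the recovered shares do not carry over to the data directly. The replicate number refers to 2 independent experiments per the study's description. Deviations of same-numbered arrays correlated at 0.017 to 0.131, so the pairing rests on that description and the blocked fit is an alternative. The other alternatives were quantile normalization, the deposited table, normexp correction (offset 50), other filters on dim probes, other ways to choose a gene's probe, and leaving out each array.

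Any measured histone gene could be named. Array values are given for the 2 largest falls and rises per class among called genes on withdrawal in scrambled cells and for the largest fall and rise in the other comparisons. From each list up to 3 genes of smallest p, and 8 genes fixed by name, could be named, with array values for some. The members and lists (replacement histones, histone mRNA processing, chaperones and acetylation, DNA replication, 5 marker lists, male germ cell chromatin) were chosen with earlier results of these data known. Current symbols came from RefSeq for 46 genes by accession and 3 by synonym.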

Additional observations from a re-analysis of the deposited data

Results flagged for a closer look

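The change on IL-7 withdrawal differed between sponge and scrambled cells, by the interaction test (limma, adjusted p under 0.05), in 17 histone genes. The interaction (sponge minus scrambled, log2) was positive for the H1 genes Hist1h1a (1.60) and Hist1h1b (1.56). In class H2A it was 1.34 for Hist1h2ab, 0.65 for Hist1h2af and 0.65 for Hist1h2ah. In class H2B it was 1.05 for Hist1h2ba, 1.25 for Hist1h2bb, 0.89 for Hist1h2bm and 0.92 for Hist2h2bb. In class H3 it was 0.73 for Hist1h3a, 1.16 for Hist1h3i and 1.54 for Hist2h3b, and in class H4 it was 1.19 for Hist1h4c, 1.08 for Hist1h4d and 1.35 for Hist1h4j. It was negative for Hist2h3c2-ps (-1.23) and Hist3h2a (-0.85), both read by downstream probes. All 17 had an adjusted p of 0.0307 to 0.0479. Of all genes, 4.32% were called with a positive and 0.951% with a negative interaction. With the replicate number as a block, 0 of the 17 and 0 of all 21335 genes were called. Without a filter on dim probes, 0 of all 34788 genes were called. The calls also depended on single arrays, as described above.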

How the results depend on the processing

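Each alternative changed 1 choice. On withdrawal in scrambled cells, 619 of 624 recomputed values of called histone genes kept their direction and their side of the threshold, and the 5 that lost the call were all Hist1h3c. Between sponge and scrambled cells without IL-7, 512 of 528 did so and 16 lost the call. In sponge cells on withdrawal 186 of 256 did so, 68 lost the call and 2 turned round: Hist1h3d was 0.10 after quantile normalization and 0.10 in the deposited table, against -0.37. With IL-7, 14 of 16 kept it, and for the interaction 121 of 272.

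The count of 7 genes lower in sponge cells on withdrawal was 4 after quantile normalization, 4 in the deposited table, 13 after normexp correction, 0 without a filter and 13 among probes well above background on all 8 arrays. Counts over all genes moved as well. Against 3254 of 21335 lower, they were 1962 after quantile normalization, 1959 in the deposited table and 3307 after normexp correction. Without a filter 1755 of 34788 genes were lower, and with the all-array filter 3644 of 18478. The count of 15 positive interactions was 26 after normexp correction, 0 without a filter and 24 with the all-array filter. Over all genes, positive interactions went from 922 of 21335 to 1204 after normexp correction and 1322 of 18478 with the all-array filter. The 2 negative ones were 0 without a filter, where 0 of all 34788 genes were called. With IL-7, the all-array filter gave 3 genes higher in sponge cells, against 0, while over all genes it gave 168 of 18478, against 67 of 21335.

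With the replicate number as a block, the interaction was called for 0 genes in each direction, and the other counts stayed within 1.5 times their values, with 10 lower and 9 higher in sponge cells on withdrawal. Outside the interaction, 1 called histone gene lost its call under the block, Hist1h4m in sponge cells on withdrawal (adjusted p = 0.0635). Deviations of same-numbered arrays correlated weakly.

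Leaving out each array gave 30 to 32 genes lower and 8 to 10 higher on withdrawal in scrambled cells, with 30 to 31 coding-side genes lower and 8 to 9 downstream genes higher. In sponge cells it gave 0 to 9 lower and 5 to 9 higher, the 5 (all downstream) without sponge replicate 2 with IL-7. Without IL-7 it gave 26 to 31 higher (26 to 30 coding-side) and 3 to 4 lower in sponge than in scrambled cells. With IL-7 it gave 0 to 2 lower and 0 to 1 higher, with 2 lower and 1 higher without scrambled replicate 2. The interaction gave 0 to 18 positive and 0 to 3 negative. Where a group was left with 1 array, its spread was taken to be that of the other groups. With 2 arrays per group, from 1 line on 1 slide, p-values measure the spread between these clones and experiments, and dim probes have little signal over background.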
